A study of Mus musculus with 8 samples.

Results

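The comparison described here is that of neuro-intermediate lobes carrying both the ACreb3l2 and AXBP1 transgenes with lobes carrying ACreb3l2 alone, and it asks which transcripts differ when XBP1 is blocked in lobes where Creb3l2 is already blocked. It rests on 4 of the 8 libraries of the series, 2 labelled ACreb3l2/AXBP1 and 2 labelled ACreb3l2, chosen by those labels and not by any measured value. All genes of the count table were eligible, and 15580 of 48526 were measured well enough to be tested. The other 4 libraries, 2 labelled WT and 2 labelled AXBP1, entered the same model and served as the second background on which AXBP1 was added.

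Each library was made from RNA of a pool of 5 neuro-intermediate lobes, the dissected part of the mouse pituitary that joins the melanotropes of the intermediate lobe to the neural lobe. The labels give the strain of all groups as C57B6, and the study's methods give males at 3 months of age. WT lobes carried no transgene, ACreb3l2 lobes the POMC_ACreb3l2 transgene, AXBP1 lobes the POMC_AXBP1 transgene, and ACreb3l2/AXBP1 lobes both. According to the study's methods a rat POMC promoter drives each transgene, so that expression is directed to POMC cells and not to the pituicytes, vessels and axons of the same pool. Each transgene encodes an acidic dominant negative protein that carries the leucine zipper of its target, pairs with it and keeps it off DNA. Animals within a pool cannot be told apart, and the 2 libraries of a group measure the spread between pools.

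Melanotropes are among the most heavily secreting cells of the body and translate large amounts of pro-opiomelanocortin (POMC), which is cut into peptides and stored in granules. XBP1 is the transcription factor of the IRE1 branch of the unfolded protein response. The IRE1 RNase removes a short intron from Xbp1 mRNA, and the protein made from the spliced mRNA activates genes for chaperones, disulfide isomerases, glycosylation and degradation of misfolded proteins in the endoplasmic reticulum (ER). Creb3l2 is held in the ER membrane, is cut in the Golgi and is known to activate genes of the COPII coat and of ER to Golgi traffic. PERK, which acts through ATF4, and ATF6 are the other branches of the response.

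The ACreb3l2 libraries held 37988912 and 28256086 counts and the ACreb3l2/AXBP1 libraries 31929757 and 33428725, and intervals that such counts give cover counting error only. Normalized counts below are counts divided by the effective library size (TMM factors from 0.913 to 1.096) and scaled back to the mean depth. The melanotrope markers were all present except Neurod1, which was below the limit for testing, with Pomc alone at 11.8% and 10.6% of counts in ACreb3l2 and 8.76% and 6.91% in ACreb3l2/AXBP1. Markers of other cells of the lobe were present as well, as in any dissected neuro-intermediate lobe, although the labels name the cell type as melanotropes. In bulk tissue, fewer cells of a type and less RNA per cell cannot be told apart. Of the compared libraries, ACreb3l2/AXBP1 replicate 2 had the lowest Pomc share of the series. ACreb3l2 replicate 2 stood apart from replicate 1 of its group in a principal component analysis of 500 genes. On the first axis it had 14.96 where replicate 1 had -0.26, and on the second -13.21 where replicate 1 had 1.27. First-axis values of the double transgenic pools were 8.865 (replicate 1) and 13.54 (replicate 2). The median absolute log2 difference between replicates was nevertheless smaller in ACreb3l2 (0.1311) than in ACreb3l2/AXBP1 (0.1505). Single transcripts differed strongly as well. Bpifa6, a gene of a family of secreted proteins, had 2060 normalized counts in ACreb3l2 replicate 2 and 0.86, 2.967 and 5.326 in the other 3 compared libraries. Leaving out 1 library moved the log2 changes of many of the 91 named genes by over 1.5 times or turned them: 39 without ACreb3l2/AXBP1 replicate 2 (32 became smaller and 5 turned), 34 without its replicate 1 (31 became larger) and 15 without each ACreb3l2 replicate.

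No gene passed the test. At an edgeR adjusted p under 0.05, 0 of 15580 genes were called (0%), and the lowest edgeR adjusted p was 0.0677, for Grm8. An unadjusted p under 0.05 was reached by 1112 genes, of which 471 were higher in ACreb3l2/AXBP1 (3.02% of genes tested) and 641 lower (4.11%). With DESeq2 36 genes were called, 11 higher and 25 lower, and with limma-voom 0. Those of the 36 that are described below are Gm42418, Gm23935, Rps26-ps1, Gm24187, Gm14719, Grm8, Xbp1, Il1rap, Bche and Rgs8 among the higher, and Icam5, N4bp2l1, Vldlr, Ifit1, Ifit3, Otud7a, Creb3l2, Slc38a1, Tspyl2, Dnajb9 and Mast4 among the lower. The log2 change had a median of 0.00 over all genes, with 90% of genes between -0.38 and 0.37, and its median SE was 0.125. Levels of both ACreb3l2/AXBP1 libraries lay above both ACreb3l2 libraries for 18.3% of genes tested and below both for 18.6%. Scaled by library size alone, without TMM, the split at an unadjusted p under 0.05 turned to 981 higher and 312 lower, and the median of all genes moved to 0.09. The directions below are therefore relative to the bulk of genes, and none is a call unless said so.

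**Figure D1:**
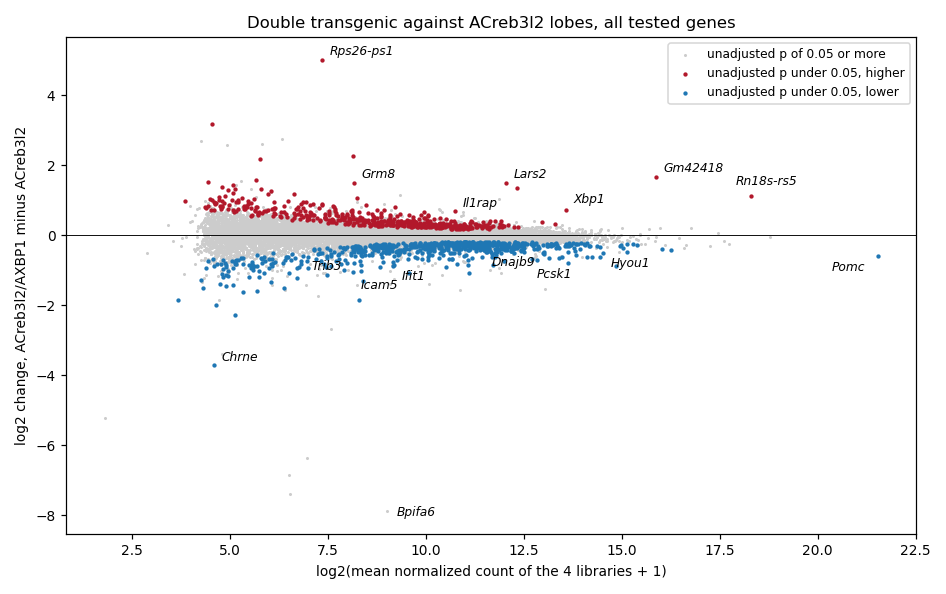
Log2 change between ACreb3l2/AXBP1 and ACreb3l2 (vertical axis) against the log2 of the mean normalized count plus 1 over the 4 compared libraries (horizontal axis), 1 point per tested gene. The 471 genes in red and 641 in blue had an unadjusted edgeR p under 0.05 and 0 passed after adjustment; Rps26-ps1 at 5.01 and Chrne at -3.72 are the extremes among them, and Bpifa6 at -7.88 rests on 1 ACreb3l2 library.

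The targets of the transgenes were examined first. Xbp1 (ENSMUSG00000020484, mm10 chromosome 11, 5520659 to 5525893, plus strand) had 9155 and 9205 normalized counts in ACreb3l2 and 17640 and 12850 in ACreb3l2/AXBP1. Both double transgenic libraries thus lay above both single ones, but they differed from each other by more than the ACreb3l2 pair did. The log2 change was 0.73 (SE 0.140, edgeR adjusted p = 0.559), and it was 0.94 without ACreb3l2/AXBP1 replicate 2 and 0.49 without its replicate 1. In WT the gene had 11880 and 13440 normalized counts and in AXBP1 12450 and 13850, so the low group was ACreb3l2. DESeq2 called it (adjusted p = 0.000188). The AXBP1 construct carries Xbp1 coding sequence from the zipper on, and whether its reads were counted on Xbp1 was not tested.

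Creb3l2 (ENSMUSG00000038648, chromosome 6, 37327255 to 37442146, minus strand) was lower, at 21210 and 14040 normalized counts in ACreb3l2/AXBP1 against 27210 and 26780 in ACreb3l2. The groups did not overlap, and the gene's log2 change was -0.62 (SE 0.176, edgeR adjusted p = 0.688). DESeq2 called it (adjusted p = 0.0311). Without ACreb3l2/AXBP1 replicate 2 it was -0.35, and without replicate 1 it was -0.94. It was also lower in AXBP1, at 18840 and 22830 against 28680 and 28200 in WT. Both compared groups carry the ACreb3l2 construct, which holds Creb3l2 coding sequence from the zipper on, and whether its reads were counted on Creb3l2 was not tested either. As a dominant negative acts on its partner protein, neither gene's count shows whether the block worked, and no file used here measures that.

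The sensors and factors of the response, a list that holds both targets, were mixed. Of its 13 tested members 9 were lower and 4 higher, with a median log2 change of -0.09, which was -0.18 without ACreb3l2/AXBP1 replicate 1 and -0.05 without replicate 2. Ern1, which encodes the IRE1 sensor that splices Xbp1, had 3570 and 3337 normalized counts in ACreb3l2 and 3008 and 2700 in ACreb3l2/AXBP1 (log2 change -0.28, SE 0.110, edgeR adjusted p = 0.688). Atf6, the sensor of the third branch, overlapped between the groups (4362 and 4600 against 4487 and 4167), with a direction that turned when only library sizes were used, and the groups also overlapped for Eif2ak3, the gene of PERK (1909 and 2024 against 1948 and 1736). Creb3l3 was below the limit for testing.

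ER chaperones, some of them known XBP1 targets, were lower as a group. Of 21 members, all tested, 17 had a lower mean in ACreb3l2/AXBP1. At an unadjusted p under 0.05, 5 members were lower (23.8% of the list, against 4.11% of all genes) and 0 higher. In 13 of the 21 (61.9%) both double transgenic libraries lay below both ACreb3l2 libraries, where 18.6% of all genes did. The median log2 change was -0.19, and it ran from -0.28 to -0.13 when each compared library was left out in turn. No member passed after adjustment over all genes. The promoters of 4 of the genes described next are shown because 3 of them, Creld2, Pdia6 and Hspa5, hold the ER stress response element, CCAAT and CCACG with 9 bases between them, and Dnajb9 holds the core ACGTGG. The element is known to be bound by ATF6 and XBP1 together with NF-Y, and the core is part of the sites XBP1 and the Creb3l proteins prefer. Matches on either strand are in capitals, letters are 5′ to 3′ on the gene's strand, and the sequences are those of RefSeq on GRCm38.p6. The stretch of Creld2 is chr15:88819479-88819578 (plus strand), that of Pdia6 chr12:17266445-17266544 (plus strand), that of Hspa5 chr2:34772019-34772048 (plus strand) and that of Dnajb9 chr12:44210159-44210188 (minus strand).
Creld2: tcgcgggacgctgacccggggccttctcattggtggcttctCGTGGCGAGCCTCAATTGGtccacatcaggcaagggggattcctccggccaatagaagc
Pdia6: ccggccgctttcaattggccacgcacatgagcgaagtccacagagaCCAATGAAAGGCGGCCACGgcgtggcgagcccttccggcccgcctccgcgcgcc
Hspa5: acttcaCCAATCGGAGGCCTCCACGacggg
Dnajb9: aacaacagttttCCACGTgcgcgtagggcg

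Dnajb9 encodes ERdj4, a cochaperone of BiP whose transcription is known to depend on XBP1, and it had the lowest p of the chaperones. Its normalized counts were 3103 and 3434 in ACreb3l2 and 2485 and 2357 in ACreb3l2/AXBP1. These groups stood apart (log2 change -0.43, SE 0.0859, edgeR adjusted p = 0.572), and leaving out 1 library gave -0.50 to -0.36. In WT it had 3424 and 3600 normalized counts and in AXBP1 2569 and 2769, so the order of the groups was WT, ACreb3l2, AXBP1 and ACreb3l2/AXBP1, with WT and ACreb3l2 overlapping. It was called by DESeq2 (adjusted p = 0.0375). A microRNA gene is annotated on the opposite strand of the gene, and whether counting used strand is not given in the sources used here.

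Creld2, an ER-resident protein induced by ER stress, had 3564 and 3501 normalized counts in ACreb3l2 and 3004 and 2274 in ACreb3l2/AXBP1 (log2 change -0.42, SE 0.142, edgeR adjusted p = 0.688). Hyou1, a large HSP70-type chaperone that works with BiP, had 27790 and 27670 against 22850 and 15840 (log2 change -0.52, SE 0.193, edgeR adjusted p = 0.688). Both genes were lower in each double transgenic library than in either ACreb3l2 library, and in both the replicate 2 library was the lower by far. Without it the log2 changes were -0.24 for Creld2 and -0.28 for Hyou1. Manf, a secreted factor of the same response, had 5428 and 5785 against 4986 and 3766 (log2 change -0.36). It overlaps other genes on both strands. Hspa5, the gene of BiP, had 73320 and 81550 against 72170 and 54030, which left the groups barely apart (log2 change -0.30, SE 0.144, edgeR adjusted p = 0.688). Without ACreb3l2/AXBP1 replicate 2 its log2 change was -0.11 and without replicate 1 it was -0.52, so the size rests on 1 library. Dnajc3 (13870 and 14140 against 12330 and 12540), a cochaperone that also restrains PERK, was lower by a log2 change of -0.17 with a small spread. Log2 changes of the remaining chaperones named by rule were -0.38 for Sdf2l1, -0.19 for Dnajb11 and -0.18 for Hsp90b1, and the groups overlapped in the last. Manf was at -0.17, Sdf2l1 at -0.13 and Hsp90b1 at -0.08 without ACreb3l2/AXBP1 replicate 2. At the upper end of the list Fkbp7, a prolyl isomerase, had 0.24.

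The other ER lists had medians between those of the chaperones and of all genes. For the 18 disulfide isomerases the median log2 change was -0.16, with 12 lower. Of these 4 reached an unadjusted p under 0.05 (22.2% of the list, against 4.11% of all genes). Pdia6 had 15830 and 15870 normalized counts in ACreb3l2 and 14020 and 10750 in ACreb3l2/AXBP1 (log2 change -0.36, SE 0.131, edgeR adjusted p = 0.688). Pdia4, another member of the family, had 13700 and 14980 against 12850 and 10170 (log2 change -0.32), and Txndc11 had the lowest p of the list (log2 change -0.34, SE 0.103). For ER entry and signal peptide removal the median was -0.12 over 25 genes. Of these 16 (64%) had both double transgenic libraries below both ACreb3l2 libraries, where 18.6% of all genes did. Sec11c, a catalytic subunit of signal peptidase, had 1591 and 1552 against 1248 and 1067 (log2 change -0.44, SE 0.0995, edgeR adjusted p = 0.572). Spcs3, another subunit, had 2645 and 3118 against 2385 and 2411 (log2 change -0.26), and Sec61b, a small subunit of the translocon, had 2467 and 2469 against 2304 and 1856 (log2 change -0.25). Ssr3 of the translocon-associated complex went the other way, at 9576 and 10560 against 10530 and 13250, with overlapping groups. The medians of the isomerases and of ER entry were -0.10 and -0.07 without ACreb3l2/AXBP1 replicate 2. The log2 changes were then -0.18 for Pdia6, -0.16 for Pdia4, -0.22 for Txndc11, -0.10 for Sec61b and 0.06 for Ssr3, and Spcs3 was at -0.14 without ACreb3l2 replicate 2.

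ER-associated degradation had a median log2 change of -0.12 over 24 genes, 17 of them lower and 2 at an unadjusted p under 0.05. Edem2, which trims mannose from misfolded glycoproteins, had 1429 and 1382 normalized counts in ACreb3l2 against 1245 and 1079 (log2 change -0.28, SE 0.108). The log2 changes of Edem1, Herpud1 and Derl3 in the same pathway were -0.17, -0.19 and -0.15, and the groups overlapped for Derl3. Without ACreb3l2 replicate 1 these were -0.09, -0.09 and 0.09, and Derl3 was at 0.06 without ACreb3l2/AXBP1 replicate 2. The median of the list was -0.07 without that library, and Edem2 was at -0.18. N-glycosylation had a median of -0.04 over 35 genes, with 26 lower, and the median was 0.04 when only library sizes were used. It was -0.01 with 19 lower without ACreb3l2/AXBP1 replicate 2 and -0.12 without replicate 1. Magt1, a subunit of one form of the oligosaccharyltransferase, had 4603 and 4875 against 3877 and 3952 (log2 change -0.28, SE 0.0751), and its 2 pairs were each tight. Most other members were closer to 0 than Magt1.

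For promoter letters, 147 of the 183 tested ER and ER to Golgi genes had a promoter in the RefSeq table. The full ER stress response element, searched on both strands in the 250 bases before each start, was present in 10 of them (6.8%), against 0.113% of all 32851 promoters in the table and 0.134% of tested genes with a promoter. Those 10 genes, which are Alg12, Calr, Canx, Creld2, Derl3, Dnajc3, Hsp90b1, Hspa5, Pdia6 and Syvn1, all had a negative log2 change, with a median of -0.24. The other 137 had a median of -0.05, and 92 of them were lower. TGACGTGG, the longer XBP1-type site, was present in 10 (6.8%, against 0.563% of all promoters and 0.904% of tested genes with a promoter), of which 6 were lower, with a median of -0.08. The shorter core ACGTGG, which lies within TGACGTGG, was present in 43 (29.3%, against 6.91% of all promoters and 10.9% of tested genes with a promoter), with a median of -0.02 and 26 lower, while the ER genes without it had a median of -0.09 with 76 lower. These are counts of letters in a short window and do not show binding.

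Genes of ER to Golgi transport were close to the bulk of genes in this comparison. The median log2 change was -0.02 for 18 COPII coat genes, -0.02 for 17 COPI coat genes and -0.03 for 25 cargo receptor genes, and all 3 turned positive (0.06, 0.06 and 0.05) when only library sizes were used. At an unadjusted p under 0.05 these 3 lists held 1, 0 and 1 lower genes and 0 higher ones. Sec24d, the COPII cargo adaptor known as a target of the Creb3l proteins, had 2227 and 2215 normalized counts in ACreb3l2 and 2183 and 1809 in ACreb3l2/AXBP1, while it had 4196 and 5008 in WT and 3972 and 3831 in AXBP1. It was therefore low in both groups with ACreb3l2, and its log2 change with AXBP1 added was -0.15 (SE 0.111, edgeR adjusted p = 0.744). Kdelr3, which returns ER proteins from the Golgi, was also low in both groups with ACreb3l2, at 188.3 and 191.9 against 225.5 and 199.7, with 309.9 and 422.1 in WT, but was higher in the double transgenic lobes (log2 change 0.16). Sec23b of the COPII coat had 6166 and 6581 against 5762 and 4308 (log2 change -0.34), and Lman2, a lectin that escorts glycoproteins, had 11400 and 11640 against 10190 and 8649 (log2 change -0.29). Arf5 of the COPI list, which overlaps a gene on the opposite strand, had -0.20. Without ACreb3l2/AXBP1 replicate 2 the medians of the 3 lists were 0.05, 0.06 and 0.01, with Sec24d at -0.03, Sec23b at -0.15, Lman2 at -0.18 and Arf5 at -0.08. Kdelr3 was at 0.07 without replicate 1.

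Over all 183 tested ER and ER to Golgi genes the median log2 change was -0.09, with 127 lower (69.4%, against 49.9% of all genes) and 21 against 1 at an unadjusted p under 0.05. Scored per library as the median log2 level relative to the WT mean, they stood at -0.29 and -0.25 in ACreb3l2 and at -0.35 and -0.47 in ACreb3l2/AXBP1. In AXBP1 alone the scores were -0.15 and -0.17. The double transgenic lobes thus had the lowest scores, and the 2 compared groups did not overlap. The median log2 change of these genes was -0.04, with 106 lower, without ACreb3l2/AXBP1 replicate 2. The plot of all lists shows the spread of their members.

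**Figure D2:**
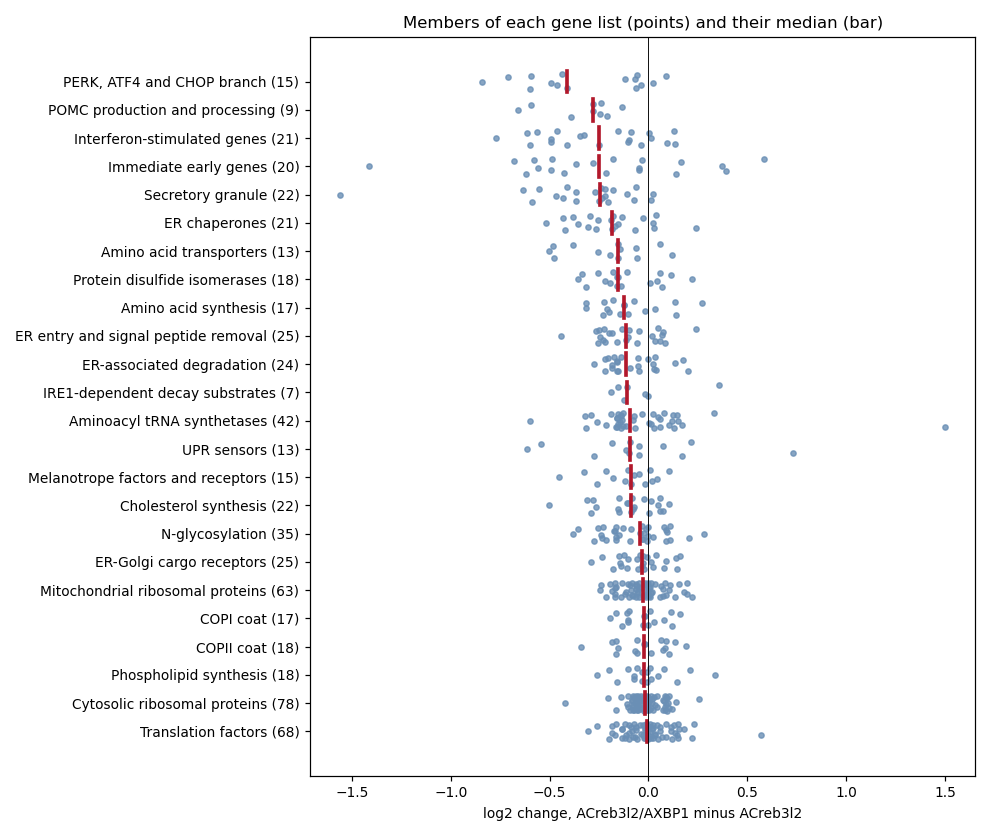
Log2 change between ACreb3l2/AXBP1 and ACreb3l2 (horizontal axis) of each tested member of 24 gene lists, 1 point per gene, with the red bar at the list's median and the number of tested genes in parentheses. Medians run from -0.41 for the PERK, ATF4 and CHOP branch to -0.01 for translation factors, and the ER chaperones at -0.19 lie below the coats and cargo receptors.

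Lipid synthesis and IRE1-dependent decay are further outputs of this branch. The 18 phospholipid synthesis genes had a median log2 change of -0.02 (0.06 with library sizes only), and Lpin2, a phosphatidate phosphatase, had the lowest p (3381 and 3034 normalized counts against 2736 and 2622, log2 change -0.26). Substrates of IRE1-dependent decay are mRNAs that the IRE1 RNase cuts. Their 7 tested members had a median of -0.11, and leaving out ACreb3l2 replicate 1 moved it to 0.07. Bloc1s1, the best known of them, had 42.14 and 33.13 against 39.56 and 30.18, and Pdgfrb had 1063 and 700.3 against 1123 and 1142. Bloc1s1 overlaps Rdh5 on the same strand in the annotation, which makes its value uncertain, and its direction turned in the fits of FPKM values and without ACreb3l2 replicate 1 (0.07) or ACreb3l2/AXBP1 replicate 2 (0.06). Pdgfrb was at 0.36, and at 0.09 without ACreb3l2 replicate 2.

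The branch of PERK, ATF4 and CHOP had the lowest median of the pathway lists, -0.41 over 15 genes. Of these 13 were lower, 5 at an unadjusted p under 0.05 (33.3% of the list, against 4.11% of all genes). In 6 (40%) both double transgenic libraries lay below both ACreb3l2 libraries, against 18.6% of all genes. Atf4, the factor that turns on amino acid synthesis and transport under stress, had 4434 and 4079 normalized counts in ACreb3l2 and 3466 and 2820 in ACreb3l2/AXBP1 (log2 change -0.44, SE 0.106, edgeR adjusted p = 0.688). In WT it had 7729 and 8435 and in AXBP1 4675 and 4605, so that both single transgenic groups lay between WT and the double one. Trib3, a pseudokinase target of ATF4 and CHOP, had 128.1 and 151.9 against 98.89 and 86.10 (log2 change -0.60, SE 0.184, edgeR adjusted p = 0.688), with 385.6 and 476.6 in WT. Vldlr, a lipoprotein receptor, had 1325 and 1332 against 927.6 and 696.8 (log2 change -0.71, SE 0.154, edgeR adjusted p = 0.572) and was called by DESeq2 (adjusted p = 0.0116). Chac1 and Ppp1r15a, further targets, had log2 changes of -0.84 and -0.46. Ddit3, the gene of CHOP, did not share this: it had 686.3 and 672.9 against 617.1 and 684.4 (log2 change -0.06, 0.03 with library sizes only), and it overlaps genes on both strands. It was not alone, since Cebpg, Ppp1r15b, Ddit4, Sesn2, Nupr1 and Atf5 of the list had 0.09, 0.02, -0.04, -0.06, -0.07 and -0.12. The remaining members, Atf3, Cebpb and Eif4ebp1, had -0.49, -0.41 and -0.60. The median of the list rests on 1 library, since it was -0.03 with 8 of 15 lower when ACreb3l2 replicate 1 was left out.

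Amino acid transporters had a median log2 change of -0.16, with 11 of 13 lower and 3 of these at an unadjusted p under 0.05. It was -0.08 with 9 lower without ACreb3l2/AXBP1 replicate 2 and -0.28 without replicate 1. Slc38a1, a glutamine transporter, had 10430 and 8718 normalized counts in ACreb3l2 and 7422 and 6097 in ACreb3l2/AXBP1 (log2 change -0.50, SE 0.121, edgeR adjusted p = 0.688). The 17 amino acid synthesis genes had a median of -0.13 with 13 lower and none at an unadjusted p under 0.05. That median was -0.04 without ACreb3l2 replicate 1 and -0.07 without ACreb3l2/AXBP1 replicate 2. Asns, asparagine synthetase, had 2227 and 2396 against 2153 and 1559, and Phgdh, the first enzyme of serine synthesis, 779.2 and 845.4 against 776.3 and 695.1. Their log2 changes were -0.32 and -0.14, and -0.11 and -0.07 without ACreb3l2/AXBP1 replicate 2. Aldh1l2 of mitochondrial folate metabolism did not differ beyond its spread. It had 106.6 and 76.54 against 93.95 and 88.77, where WT had 742.1 and 686.0, so its level in lobes with ACreb3l2 was about the same with and without AXBP1. The log2 change was -0.02 with an SE of 0.211, and its sign turned with library sizes only, in the fits of FPKM values, with the replicate block and without ACreb3l2 replicate 1 (0.26) or ACreb3l2/AXBP1 replicate 2 (0.02).

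The translation machinery was near the median of all genes. Cytosolic ribosomal protein genes had a median log2 change of -0.02 over 78 genes, mitochondrial ones -0.03 over 63 and translation factors -0.01 over 68, and with library sizes only these were 0.07, 0.06 and 0.08. Rpl29, which has near-identical copies in the genome, Mrpl4 and the initiation factor gene Eif1a had the lowest p of these lists, with log2 changes of -0.42, -0.25 and -0.30. Rpl29 was at -0.08 without ACreb3l2 replicate 1, the higher of its 2 ACreb3l2 values (1269 and 839.7), and Mrpl4 was at -0.13 without ACreb3l2/AXBP1 replicate 2. The 42 aminoacyl tRNA synthetase genes had a median of -0.09, which turned to 0.03 without ACreb3l2/AXBP1 replicate 2 and was -0.22 without replicate 1. That list held one of the largest differences of all, Lars2, the mitochondrial leucyl-tRNA synthetase, with 1639 and 2813 against 6038 and 6516 normalized counts (edgeR adjusted p = 0.688). Like those of the ribosomal RNA gene Rn18s-rs5, the counts of Lars2 were higher in all 4 libraries with AXBP1 than in the others.

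**Figure D3:**
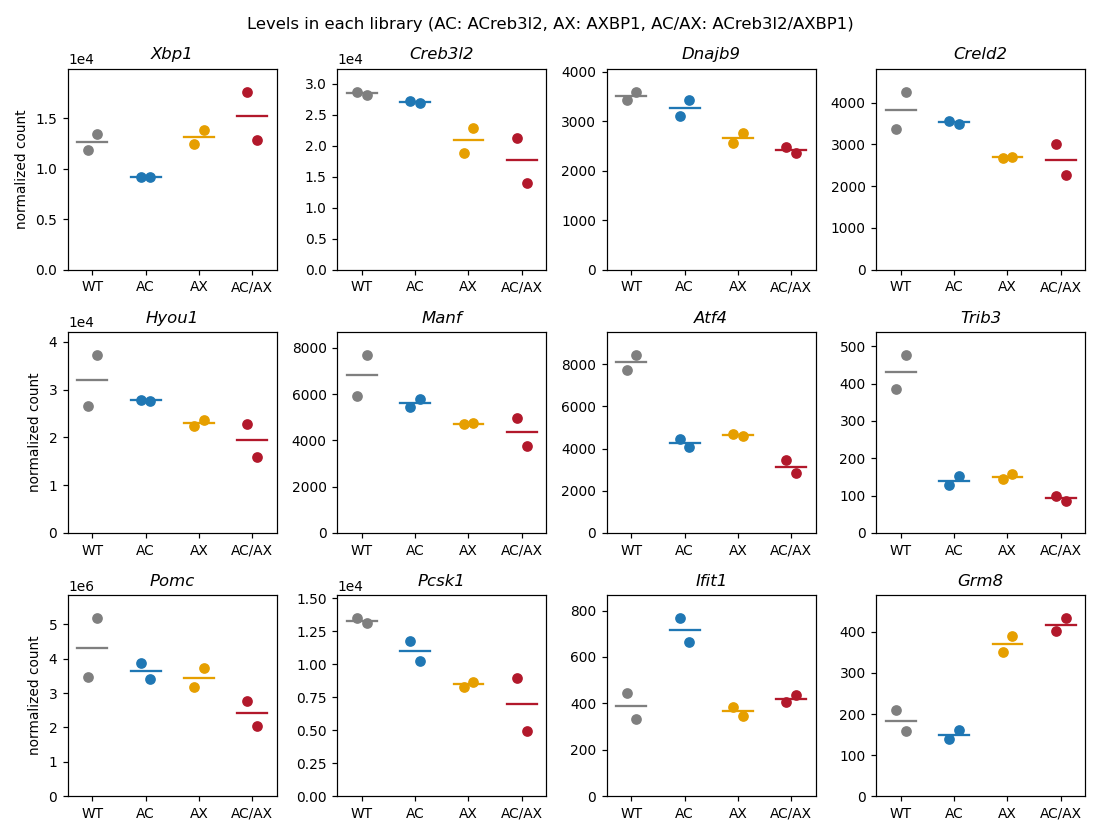
Normalized counts (vertical axis, from 0) of 12 genes in the 8 libraries by group (horizontal axis), with points for libraries and bars for the mean of 2. Dnajb9, Creld2, Hyou1 and Manf are lower in the libraries with AXBP1 than in ACreb3l2, Ifit1 is high in ACreb3l2 alone, and Grm8 lies between 349.9 and 433.2 in the 4 libraries with AXBP1 and between 138.5 and 209.8 in the others.

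Genes for the making of POMC peptides were all lower in mean. The 9 genes of POMC production and processing had a median log2 change of -0.28, with 4 at an unadjusted p under 0.05. Pomc had 3863000 and 3415000 normalized counts in ACreb3l2 and 2766000 and 2050000 in ACreb3l2/AXBP1 (log2 change -0.60, SE 0.252, edgeR adjusted p = 0.688). Both double transgenic values were also below both WT values, which were far apart (3460000 and 5181000). Pcsk1, the prohormone convertase that makes the first cuts, had 11760 and 10200 against 8958 and 4933 (log2 change -0.66, SE 0.247, edgeR adjusted p = 0.688). Its log2 change was -0.30 without ACreb3l2/AXBP1 replicate 2 and -1.16 without replicate 1, and it was called in the latter. Pam, which amidates peptides, had 76810 and 73710 against 65290 and 49460 (log2 change -0.39), and Pcsk2, the convertase that makes α-MSH possible, overlapped between groups (97100 and 126000 against 114300 and 69220). Without ACreb3l2/AXBP1 replicate 2 Pam was at -0.21 and Pcsk2 turned from -0.28 to 0.03. The median of the list was -0.22 without that library and -0.45 without replicate 1.

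Secretory granule genes followed the same direction, with a median log2 change of -0.24 and 20 of 22 lower. Of these 7 reached an unadjusted p under 0.05 (31.8% of the list, against 4.11% of all genes). Scg2 and Chgb are granins, the acidic proteins of the granule core. Scg2 had 92720 and 85130 normalized counts in ACreb3l2 and 74030 and 59540 in ACreb3l2/AXBP1 (log2 change -0.41, SE 0.128, edgeR adjusted p = 0.688), and Chgb had 42430 and 41040 against 35450 and 24820 (log2 change -0.47, SE 0.153). Chga, another granin, overlapped (101500 and 120400 against 109000 and 62740). Cadps, which primes granules for release, had 679.4 and 782.5 against 571.6 and 509.5 (log2 change -0.43, SE 0.123). Without ACreb3l2/AXBP1 replicate 2 the median of the list was -0.14 with 20 of 22 lower, and without replicate 1 it was -0.39. Chgb was at -0.24, Scg2 at -0.27 and Chga at -0.03 without replicate 2.

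Of the 15 tested transcription factors and receptors of the melanotrope 11 were lower and 4 higher. At an unadjusted p under 0.05, 2 were lower and 0 higher. In 7 (46.7%) both double transgenic libraries lay below both ACreb3l2 libraries, against 18.6% of all genes, and in 0 above both. Tbx19 (Tpit), the factor that commits cells to POMC expression, had 18320 and 14670 normalized counts in ACreb3l2 and 14470 and 9604 in ACreb3l2/AXBP1 (log2 change -0.45, SE 0.185, edgeR adjusted p = 0.688). It was -0.19 without ACreb3l2/AXBP1 replicate 2 and -0.78 without replicate 1. Pax7, which specifies melanotropes, had 10220 and 14430 against 13620 and 10190 (log2 change -0.05, SE 0.188, and 0.03 with library sizes only, 0.22 without ACreb3l2 replicate 2 and -0.27 without its replicate 1), and Drd2, the dopamine receptor that restrains them, had 8788 and 10360 against 9187 and 7733. The groups of Pax7 and Drd2 overlapped. Pitx1 had 2441 and 1966 against 1897 and 1625 (log2 change -0.33, and -0.15 without ACreb3l2 replicate 1), and Insm1, a factor of endocrine cells, had a log2 change of 0.01. The list of 15 tested genes had a median of -0.09 (-0.15 without ACreb3l2/AXBP1 replicate 1), nearer to that of all genes than the granule genes. Opn3, Oprm1 and Neurod1 were below the limit for testing.

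Genes that the study listed as lower in lobes without Tpit came from a comparison that used none of these libraries. They had a median log2 change of -0.11 over 1306 genes, with 960 lower (73.5%). At an unadjusted p under 0.05, 204 were lower (15.6%), against 4.11% of all genes. Their scores per library were -0.16 and -0.21 in ACreb3l2 and -0.24 and -0.41 in ACreb3l2/AXBP1. Genes listed as higher in such lobes had a median of 0.03 over 859 genes, with 350 lower (40.8%), and the median was -0.02 in the filtered fits of FPKM values. Both medians were -0.04 without ACreb3l2/AXBP1 replicate 2.

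Interferon-stimulated genes showed a different order of the groups. Their median log2 change was -0.25 over 21 tested genes, with 16 lower and 4 at an unadjusted p under 0.05. Without ACreb3l2 replicate 2 the median was -0.05, with 14 lower. Ifit1, which binds foreign RNA lacking a proper cap, had 767.1 and 666.0 normalized counts in ACreb3l2 and 404.5 and 436.7 in ACreb3l2/AXBP1. WT had 446.8 and 333.7 and AXBP1 385.5 and 345.2, so ACreb3l2 was the group apart and the double transgenic lobes were at the level of the other 2 groups. The log2 change was -0.77 (SE 0.148, edgeR adjusted p = 0.559), and it stayed between -0.86 and -0.66 under every alternative run. Ifit3 had 1276 and 1422 against 841.6 and 985.3 (log2 change -0.56, SE 0.119, edgeR adjusted p = 0.572), and Oasl1, a homologue of the oligoadenylate synthetases, 145.3 and 135.9 against 77.14 and 73.68 (log2 change -0.90). Both had WT and AXBP1 values below their ACreb3l2 values too. DESeq2 called Ifit1 and Ifit3 (adjusted p = 0.0151 and 0.0410). Bst2 and Ifih1 of the same list had log2 changes of 0.00 and 0.01. The macrophage and microglia markers overlapped between the groups in their summed level (18250 and 13320 in ACreb3l2, 14850 and 12490 in ACreb3l2/AXBP1). All 12 were lower in mean, but 5 of 12 were without ACreb3l2 replicate 1, where their median was 0.07. Their part in the interferon genes was not tested. The promoters of Ifit1 and Ifit3 are printed because both hold a pair of matches, in capitals, to GAAA repeated after 2 further bases, on either strand, which is the core that interferon-activated factors bind. At least 1 such match was present in 2.98% of the 32851 promoters. The stretches are chr19:34640759-34640858 and chr19:34583362-34583461, both on the plus strand, from RefSeq on GRCm38.p6.
Ifit1: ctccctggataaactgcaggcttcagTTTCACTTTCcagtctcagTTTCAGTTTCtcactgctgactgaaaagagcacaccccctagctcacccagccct
Ifit3: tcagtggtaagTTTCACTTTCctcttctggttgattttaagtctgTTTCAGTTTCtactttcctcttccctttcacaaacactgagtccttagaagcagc

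The protein-coding genes with the smallest p and a mean of at least 100 normalized counts were named by rule. Among the higher ones, Grm8, a metabotropic glutamate receptor that couples to inhibitory G proteins, had 138.5 and 159.9 normalized counts in ACreb3l2 and 402.5 and 433.2 in ACreb3l2/AXBP1. WT had 209.8 and 158.1 and AXBP1 349.9 and 390.3, so the 4 libraries with AXBP1 lay above the 4 without it. The log2 change was 1.49 (SE 0.166, edgeR adjusted p = 0.0677). It ran from 0.99 to 1.60 over the alternatives and was called by DESeq2 (adjusted p = 8.33e-09). Il1rap, the accessory chain of the interleukin-1 receptor, had 1263 and 1385 against 2066 and 2162 (log2 change 0.68, SE 0.108, edgeR adjusted p = 0.379), and Bche, butyrylcholinesterase, 849.7 and 889.9 against 1168 and 1350 (log2 change 0.53). Rgs8, which shortens G protein signals, had 231.3 and 274.2 against 403.5 and 503.3 (log2 change 0.85) and, like Grm8, higher values in AXBP1 than in WT.

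Of the remaining higher genes, Aplnr, Pcdh12 and S1pr3 are known from vessels, and they had log2 changes of 0.86, 0.90 and 0.57. All 12 endothelial markers were higher in mean as well, with a median log2 change of 0.50. Of these 5 reached an unadjusted p under 0.05 (41.7%, against 3.02% of all genes). In 7 of the 12 (58.3%) both double transgenic libraries lay above both ACreb3l2 libraries, where 18.3% of all genes did. All 12 were also higher in AXBP1 against WT, with a median of 0.44. The summed endothelial level was 9822 and 5577 in ACreb3l2 and 9547 and 11770 in ACreb3l2/AXBP1, so the sums overlapped and the lowest library was ACreb3l2 replicate 2. Without that library the median of the markers was 0.27, and without ACreb3l2 replicate 1 it was 0.92. The part of vessel content in these genes was not tested. Car8, Dact1, Magee2 and Pnma2 completed the higher genes, with log2 changes of 0.70, 0.52, 0.41 and 0.52.

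Among the lower ones, Icam5, an adhesion molecule of neurons, had the largest change, with 392.2 and 367.8 normalized counts in ACreb3l2 against 213.6 and 150.9 (log2 change -1.06, SE 0.187, edgeR adjusted p = 0.503). It was lower in WT (239.9 and 185.4) and AXBP1 (256.0 and 247.1) than in ACreb3l2, and it overlaps 2 genes on the opposite strand. Otud7a, a deubiquitinase, had 387.0 and 343.9 against 235.4 and 185.5 (log2 change -0.80), and Tagln3, a neuronal cytoskeletal protein, 571.1 and 570.0 against 402.5 and 334.7 (log2 change -0.63). Rnf128, a ubiquitin ligase of the endosome, had 1181 and 1059 against 850.5 and 739.4 (log2 change -0.50). The kinase gene Mast4 and N4bp2l1, Tspyl2 and 1700037H04Rik had log2 changes from -0.69 to -0.45. All 7 markers of hypothalamic axons and neurons were lower in mean too, with a median log2 change of -0.28 (-0.13 without ACreb3l2 replicate 1), and their summed level was 7014 and 5927 in ACreb3l2 and 5518 and 5907 in ACreb3l2/AXBP1. What those axons contribute to the neuronal genes was not tested.

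Cholesterol synthesis genes and immediate early genes gave 2 more genes named by rule. Insig1, which holds the sterol sensor complex in the ER, had 6150 and 5279 normalized counts in ACreb3l2 and 4584 and 3497 in ACreb3l2/AXBP1 (log2 change -0.50, SE 0.127, edgeR adjusted p = 0.688). The 22 tested cholesterol synthesis genes around it had a median of -0.09, which was -0.01 without ACreb3l2/AXBP1 replicate 2. Jund, a member of the AP-1 family, had 8956 and 8233 against 7534 and 5787 (log2 change -0.37). Insig1 was at -0.32 and Jund at -0.19 without ACreb3l2/AXBP1 replicate 2. The immediate early genes as a list were decided by 1 library: their median was -0.25, but 0.44 without ACreb3l2 replicate 1. The scores of the ACreb3l2 libraries for this list, relative to WT, were 0.07 and -0.89, against -0.37 and -0.85 in ACreb3l2/AXBP1.

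The largest changes of any gene type at an unadjusted p under 0.05 were in loci with uncertain counts. Rps26-ps1 (chromosome 8, 107439131 to 107439579, a processed pseudogene that can share reads with other copies of Rps26) had 12.04 and 6.854 normalized counts in ACreb3l2 and 176.0 and 458.0 in ACreb3l2/AXBP1 (log2 change 5.01, SE 0.641, edgeR adjusted p = 0.458). WT had 556.6 and 400.3 and AXBP1 340.0 and 272.5, so ACreb3l2 was the low group. Rps26 itself, a ribosomal protein gene, had 6232 and 5956 against 6253 and 5782. Gm14719, another pseudogene, had 6.02 and 2.285 against 33.62 and 47.05, and its direction changed in all 3 fits of FPKM values. Gm24187, annotated as a microRNA, had 88.58 and 104.0 against 250.2 and 676.4. On the lower side, Chrne, a subunit of the muscle acetylcholine receptor, had 79.12 and 6.854 against 2.967 and 3.551, Fst, the activin antagonist follistatin, 55.04 and 21.71 against 7.911 and 11.54, and Far2, of fatty alcohol synthesis, 11.18 and 102.8 against 7.911 and 14.20. Chrne and Far2 differed most between the ACreb3l2 libraries themselves. The log2 change of Chrne was -1.03 and that of Fst -1.13 without ACreb3l2 replicate 1, that of Far2 was 0.00 without ACreb3l2 replicate 2, and that of Gm24187 was 1.38 without ACreb3l2/AXBP1 replicate 2.

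Whether AXBP1 acted alike on the other background was examined in the AXBP1 and WT libraries, which share no sample with the compared ones. AXBP1 against WT had 0 called genes with edgeR (0%, lowest edgeR adjusted p = 0.0769), 80 with DESeq2 and 2 with limma-voom, and 1554 genes at an unadjusted p under 0.05 (9.97%). Of the 471 genes higher in ACreb3l2/AXBP1 at an unadjusted p under 0.05, 403 (85.6%) were also higher in AXBP1 against WT, where 50.3% of all genes were higher, and 89 (18.9%) reached an unadjusted p under 0.05 there, against 4.29% of all genes in that direction. Of the 641 lower ones 564 (88.0%) were lower and 244 (38.1%) reached it, against 5.68% of all genes in that direction. In the opposite direction 5 genes reached it in both, which are Wsb1, P2rx6, Nsg1, Frmpd3 and A930018M24Rik, and they are named here after their values were seen.

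Genes with the smallest p on both backgrounds were Grm8, Gm23935, Gm42418 and Rgs8 among the higher and Dnajb9, Atf4, Slc38a1 and 1110001J03Rik among the lower. For Dnajb9 the log2 change was -0.40 in AXBP1 against WT, close to the -0.43 in ACreb3l2/AXBP1 against ACreb3l2. Atf4 had -0.80 and -0.44, and Trib3 -1.52 and -0.60, so both were lower by less where ACreb3l2 was already present. The ER chaperones had medians of -0.20 and -0.19, and the COPII coat genes of -0.16 and -0.02.

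The interaction, the difference between the 2 effects of AXBP1, tested this directly. It had 0 called genes with edgeR (0%, lowest edgeR adjusted p = 1), 4 with DESeq2 and 0 with limma-voom, and 386 genes at an unadjusted p under 0.05 (2.48%). For Trib3 the interaction was 0.93 on the log2 scale (SE 0.251, edgeR adjusted p = 1), for Atf4 0.36, for Icam5 -1.30 and for Xbp1 0.68. For Dnajb9 it was -0.04 (SE 0.121, against 0.0859 for the log2 change in ACreb3l2/AXBP1 against ACreb3l2). None of these is a call. With 2 pools per group, a lack of calls does not show that the 2 effects were alike. The interaction had an unadjusted p under 0.05 for 47 of the 471 higher genes (9.98%) and 58 of the 641 lower ones (9.05%). Those genes were picked by 1 of the 2 effects it compares, so these shares cannot be set against that of all genes.

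**Figure D4:**
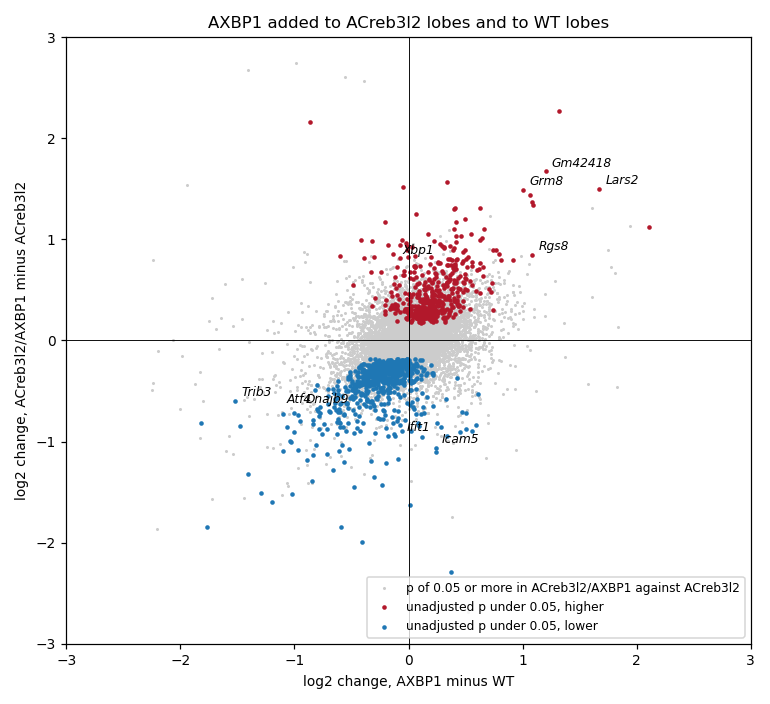
Log2 change of each gene in AXBP1 against WT (horizontal axis) and in ACreb3l2/AXBP1 against ACreb3l2 (vertical axis), which use different libraries. Red and blue points had an unadjusted p under 0.05 on the vertical axis; 85.6% of the red lie right of 0 and 88.0% of the blue left of it, and 14 genes lie outside the axes.

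Some features of the libraries moved with the groups. Rn18s-rs5, annotated as a ribosomal RNA gene on chromosome 17, took 0.424% and 0.827% of counts in ACreb3l2, 1.68% and 1.19% in ACreb3l2/AXBP1, 2.05% and 1.62% in AXBP1 and 0.576% and 0.254% in WT. Gm42418 (chromosome 17, 39846958 to 39848788) overlaps it on the opposite strand and had 23680 and 33650 normalized counts in ACreb3l2 and 76190 and 106500 in ACreb3l2/AXBP1 (log2 change 1.67, SE 0.201, edgeR adjusted p = 0.163), with 61460 and 53110 in AXBP1 and 24150 and 25690 in WT. Both were higher in the 4 libraries with AXBP1, as were Gm23935 (log2 change 1.34) and Lars2. DESeq2 called Gm42418 and Gm23935. Taking Rn18s-rs5, Gm42418, Gm23935, Gm24187 and Lars2 out of the fit left 0 called genes and 1105 at an unadjusted p under 0.05, of which 1075 were among the 1112. The part of leftover ribosomal RNA in the other genes was not tested beyond this.

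Among markers of other cells, the 12 pituicyte and astroglial genes had a median log2 change of 0.01 (0.12 without ACreb3l2/AXBP1 replicate 1 and -0.10 without replicate 2), with summed levels of 80660 and 73540 in ACreb3l2 and 71510 and 87440 in ACreb3l2/AXBP1. Of 11 tested fibroblast and pericyte markers 9 were higher (median 0.30, and 0.09 without ACreb3l2 replicate 2), with sums of 36000 and 26830 against 36160 and 42120. Anterior lobe genes had sums of 165000 and 125700 against 207300 and 107000, while 7 of 10 were lower (median -0.32). In 6 of these 10 (60%) both double transgenic libraries lay below both ACreb3l2 libraries, against 18.6% of all genes. Erythroid genes, all 6 of them lower in mean, had sums of 36150 and 19340 against 16260 and 18880. The erythroid median of -0.64 was -0.08, with 4 of 6 lower, without ACreb3l2 replicate 1. Of the 9 markers of Schwann cells and oligodendrocytes 8 were lower (median -0.26, and -0.07 without ACreb3l2 replicate 1). The 6 tested melanotrope markers were all lower, with a median of -0.30 (-0.13, with 4 of 6 lower, without ACreb3l2/AXBP1 replicate 2), and their sum, most of it Pomc, was 4.00e+06 and 3583000 against 2920000 and 2148000. None of these lists had a marker at 0 in all libraries. The sums of the melanotrope, erythroid and axon markers were lower in both double transgenic libraries than in either ACreb3l2 library. That of the fibroblast and pericyte markers was higher, with 6 of 11 markers (54.5%) apart in that direction, against 18.3% of all genes. The nearest sums of the 2 groups were close for the fibroblast markers (36160 and 36000) and for the axon markers (5907 and 5927). The part of melanotrope content in the lower granule and ER genes was not tested.

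**Figure D5:**
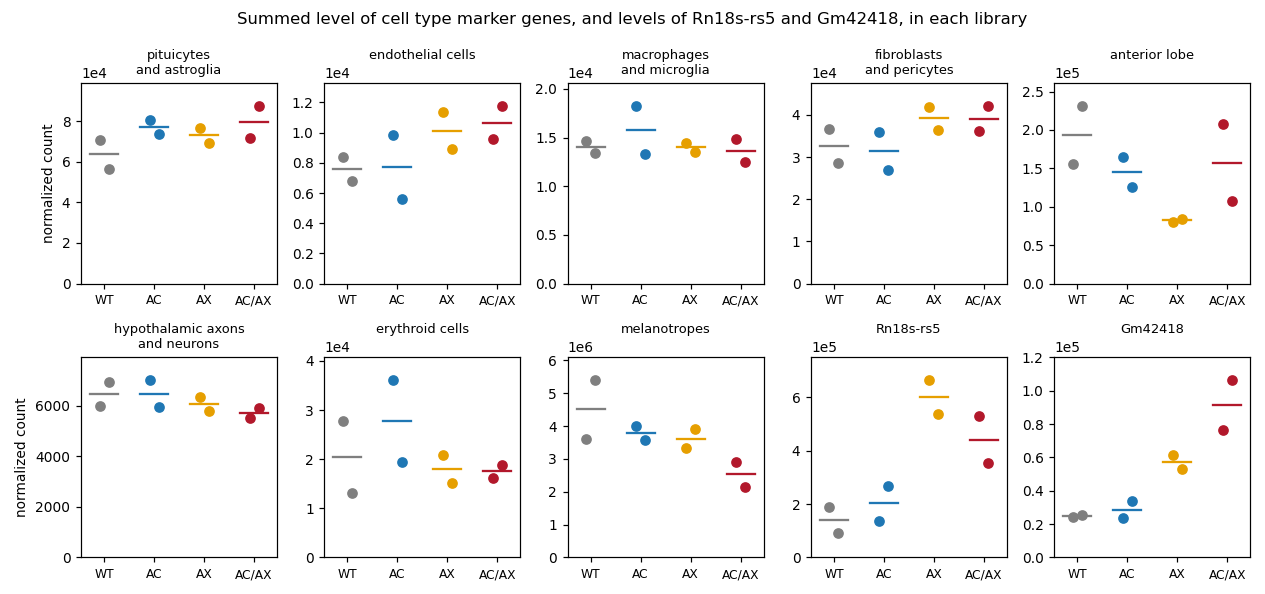
Summed normalized counts (vertical axis, from 0) of marker genes of 8 cell types, and the normalized counts of Rn18s-rs5 and Gm42418, in the 8 libraries by group, with points for libraries and bars for the mean of 2. Rn18s-rs5 and Gm42418 are higher in all 4 libraries with AXBP1, the melanotrope sum is lowest in ACreb3l2/AXBP1, and the endothelial sums of the compared groups overlap.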

How the data were processed

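RNA from 8 pools of neuro-intermediate lobes was sequenced, 2 pools for each of 4 groups taken from the labels. Raw read counts per gene were deposited by the authors, who, per the study's methods, used Trimmomatic for trimming, Tophat for alignment (mm10) and HTSeq for counting. The labels name HTSeq and DESeq. The deposited FPKM table (fragments scaled by transcript length and library size) gave gene names and an alternative scale. The study lists Cufflinks among its software without tying it to this table. The annotation release and strand setting are not given in the sources used here. The labels name ribosomal depletion and the methods a poly(A) kit, so the kit is uncertain. No column of values was left out (0).

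Genes with a mean normalized count above 20 were tested (15580 of 48526, holding 99.86% of counts) with edgeR 4.0.16 in R 4.3.3, by its quasi-likelihood test with TMM normalization, robust estimation and 1 model over all 8 libraries. Contrasts were ACreb3l2/AXBP1 against ACreb3l2, AXBP1 against WT, and their difference. SE is the log2 change divided by the root of the F statistic. Benjamini-Hochberg adjustment covered all genes tested, and a call is an adjusted p under 0.05. The p-values measure the spread between pools, 2 per group. Replicates of a group differed by more than counting noise. The code was tested on simulated counts. DESeq2 1.42.0 and limma 3.58.1 (voom, and log2 FPKM with pseudocounts of 0.1 and 1 above an FPKM of 0.1), other normalizations, filters on low counts (none, and a mean above 100), the 4 compared libraries alone, a replicate block and each compared library left out were alternatives. Gene positions come from GENCODE M21, promoters from RefSeq on GRCm38.p6.

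The comparison and the gene lists were chosen with earlier results of these data known. Named genes were a set given by name, the 12 higher and 12 lower protein-coding genes with the smallest p among those with a mean of at least 100 and groups that did not overlap, the 3 largest changes in each direction at an unadjusted p under 0.05, the member with the smallest p of each list, and the 4 higher and 4 lower genes with the smallest p on both backgrounds. Bpifa6, Fkbp7, Chac1, Ppp1r15a, Insm1, Bst2, Ifih1, Rps26 and Rn18s-rs5 were added after their values were seen. So were Cebpg, Ppp1r15b, Ddit4, Sesn2, Nupr1, Atf5, Atf3, Cebpb and Eif4ebp1.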

Additional observations from a re-analysis of the deposited data

How the results depend on the processing

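Called genes in ACreb3l2/AXBP1 against ACreb3l2, in AXBP1 against WT and in the interaction, each 0 in the edgeR test reported, numbered 513, 628 and 126 without a filter on low counts, 36, 80 and 4 with DESeq2, 0, 2 and 0 with limma-voom, 4, 14 and 3 on log2(FPKM + 0.1), 4, 12 and 7 on log2(FPKM + 1), and 37, 42 and 62 on log2(FPKM + 0.1) without a filter. The cause of these differences was not tested. Leaving out 1 compared library gave 1 to 11, 1 to 4 and 0 to 2. In the first comparison these were 1 gene without ACreb3l2 replicate 1 (Psapl1), 2 without its replicate 2 (Gm12696 and Dusp14), 11 without ACreb3l2/AXBP1 replicate 1 and 1 without its replicate 2 (Rps26-ps1). RLE normalization, library sizes only, a mean count above 100 and removal of Rn18s-rs5 and 4 genes that moved with it, an alternative chosen after seeing the data, gave 0, as did the 4 compared libraries alone for the first. Genes at an unadjusted p under 0.05 in the first comparison, 1112 in the test reported, numbered 2310 without a filter and 353 to 2214 when 1 library was left out (602 without ACreb3l2 replicate 1, 353 without ACreb3l2/AXBP1 replicate 2). A replicate block gave 0, 3 and 0 called genes, and the replicate numbers share only a number, since the deviations of the 2 replicate 1 libraries correlated at 0.01995. The crossed block was not run for that reason. Of 1442 alternative values of 91 named genes, 1415 kept the direction reported and 27 in 11 genes did not, and 80 passed the threshold. Of 432 list medians 25 moved by more than the spread between libraries. The design has 2 pools per group, and the median SE of a log2 change was 0.125.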

Other observations

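Loci of all long non-coding classes had positive medians in ACreb3l2/AXBP1 against ACreb3l2, a difference from protein-coding genes that was not tested. The largest such class, 311 antisense loci, had a median of 0.03, which turned to -0.02 without ACreb3l2/AXBP1 replicate 2. In the other classes with over 100 loci the median log2 change was 0.27 for 189 loci of the TEC class, which await experimental proof, of which 146 were higher, 0.14 for 269 lincRNAs, of which 185 were higher, and 0.10 for 216 processed transcripts, against 0.00 for 14027 protein-coding genes. Leaving out 1 compared library moved these medians between 0.083 and 0.39, between 0.065 and 0.19 and between 0.038 and 0.15. In AXBP1 against WT they were 0.05, 0.09 and 0.11. Smaller classes had medians of 0.17 (52 bidirectional promoter RNAs, 38 higher), 0.06 (16 sense intronic) and 0.16 (3 sense overlapping). Short non-coding classes had negative medians, with 9 of 38 snoRNAs higher (median -0.13), 6 of 16 miRNAs (-0.18), 5 of 14 snRNAs (-0.13), 1 of 13 miscellaneous RNAs (-0.40) and 2 of 10 scaRNAs (-0.19).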
